A study of Saccharomyces cerevisiae with 4 samples.

Results

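The genes described here encode the core machinery of chromosome replication in Saccharomyces cerevisiae, with the topoisomerases TOP1 and TOP2. They were taken by ORF name, with no filter on a measured value, as 43 genes of the 6211 ORFs listed. The list was drawn up with earlier results of these data known. They cover the origin recognition complex, the MCM helicase, factors that load and fire it, DNA polymerases alpha, epsilon and delta, the sliding clamp PCNA and its loader, the single-strand binding protein RPA, and the ligase and nuclease that finish lagging strands. Microarrays compared log-phase cultures of the haploid strain BY4741 (MATa, his3Δ1, leu2Δ0, LYS2, met15Δ0, ura3Δ0) in YPD at 28 °C, given 10 µg/ml b-lapachone in DMSO for 1 h, with cultures of the same strain that received 1% DMSO alone. Both channels therefore share the same auxotrophic alleles and the same solvent. Each of the 4 arrays paired 1 treated with 1 vehicle culture, as 4 biological replicates, and the dyes were swapped: RNA of treated cells was labelled with Cy3 in replicates 1 and 3 and with Cy5 in replicates 2 and 4.

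Replication starts where the origin recognition complex, Cdc6 and Cdt1 load the MCM helicase during G1. In S phase the kinases Cdc7-Dbf4 and CDK, with Cdc45, Sld3 and Dpb11, turn the loaded helicase into an active one, and polymerases then copy the strands behind it. Many of these genes are transcribed once per cycle near the G1/S boundary under the factor MBF, so in an unsynchronised culture their RNA depends on how cells are spread over the cycle. b-Lapachone is a quinone that cells reduce and oxygen reoxidises, and it has long been studied as a compound that acts on DNA topoisomerases, which relax the twists that build up ahead of the fork.

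Values are deposited log ratios of the array's channels, read here as log2 of b-lapachone over vehicle. The log base and the direction are assumptions. The direction is likely rather than settled, as the usual form of such a table, and if it ran the other way each sign given below would turn. Means are given ± SD over the arrays that measured a gene. A gene is said to have risen or fallen only where limma's test of the mean against 0, adjusted by Benjamini-Hochberg (BH) over all 5112 genes measured on at least 3 arrays, gave a p below 0.05. The table holds ratios and no signal levels, so the labelled cell type could not be checked by the level of its markers, and fewer cells in a phase and less RNA per cell cannot be told apart. On single arrays 4819 to 5534 ORFs had a value, and having 4 arrays limits the precision.

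Of the 43 replication genes 38 were tested, 33 on 4 arrays and 5 on 3 (MCM3, ORC1, POL3, POL30 and RAD27). The 5 left out were MCM4, CTF4 and DBF4, with no value on any array, and CDC9 and SLD3, which had a value on replicate 2 alone (0.030 and 0.34). None of the 38 rose or fell, by limma with BH adjustment (0 higher and 0 lower, lowest adjusted p = 0.212), and 4 had an unadjusted p under 0.05. Over all genes tested 3.03% were called, 2.07% higher and 0.959% lower, and 18.8% had an unadjusted p under 0.05. A count of 0 in 38 genes is near that background and does not by itself set the replication genes apart. Their means ran from -0.33 to 0.33, with 25 below 0 and 13 above, and 35 of the 38 lay within 0.25 of 0. Those below 0 were 65.8% of the replication genes tested, beside 53.2% of all genes tested. The median was -0.07, beside -0.01 for all genes tested, and it was below 0 on every array (-0.04, -0.04, -0.10 and -0.05 on replicates 1 to 4). Over all genes tested the median was -0.021, -0.0087, -0.017 and 0.0016 on the same arrays.

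**Figure D1:**
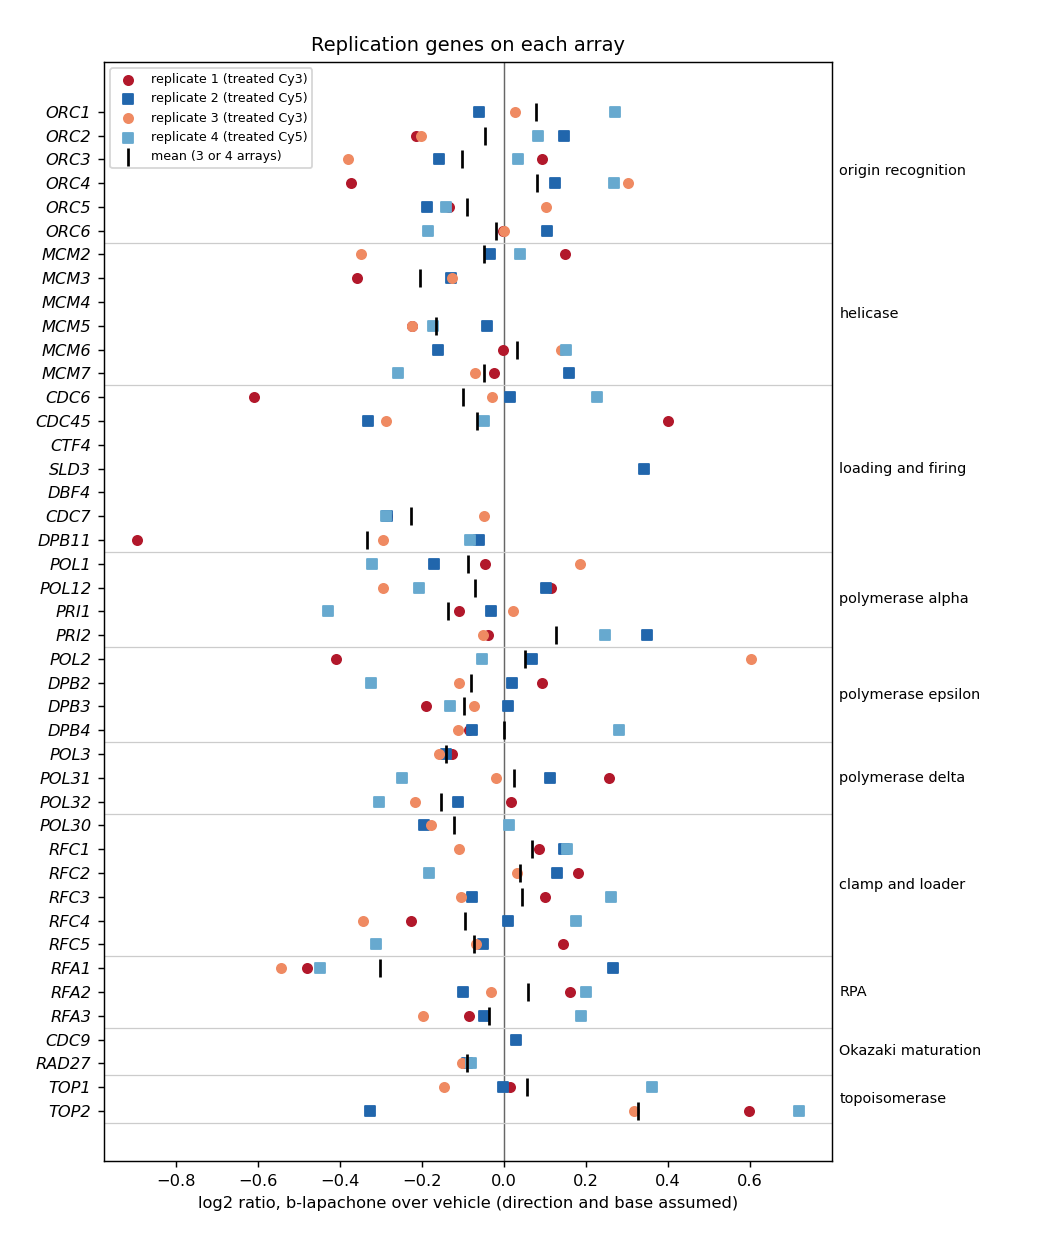
Log2 ratio of each replication gene on each array (circles for treated RNA in Cy3, squares for treated RNA in Cy5), with the mean as a black bar, in order of role. Most genes scatter on both sides of 0; MCM5, CDC7 and DPB11 lie below 0 on all 4 arrays, and RFA1 and TOP2 each have replicate 2 on the far side of 0 from the other arrays.

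The spread between arrays was larger than most of the means. The SD over arrays had a median of 0.185 among replication genes and 0.201 among all genes tested, while the median size of a mean was 0.080 and 0.122. Of the 33 replication genes with 4 values, 3 had the same sign on all arrays (9.09%, beside 26.5% of all genes with 4 values). These were MCM5, CDC7 and DPB11, each below 0. The ratios were hardly correlated between arrays: over these 33 genes Pearson's r between pairs of arrays ran from -0.28 to 0.21. Over the 4574 genes with 4 values r ran from 0.12 to 0.50. Means over all genes tested had a wider range, -1.18 to 2.01, than those of the replication genes, -0.33 to 0.33. The part of this range in the difference in r was not tested. These correlations are across genes, which share arrays and dyes and are not replicates.

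The intervals say how large a change could have been missed. limma's 95% interval of the mean, which is not adjusted for the number of genes and borrows its variance in part from all genes, lay within 0.5 of 0 on the log2 scale for 35 of 38 replication genes, a change of up to 1.41-fold in either direction. Among all genes tested 81.2% met this. The exceptions were DPB11, RFA1 and TOP2, whose widest bounds reached 1.55-fold lower, 1.51-fold lower and 1.57-fold higher. For all 38 genes the interval lay within 2-fold, as it did for 99.1% of all genes. Intervals from each gene's own variance are not given here. They would be wider for genes with a large SD, such as TOP2 at 0.47. The smallest mean that was called anywhere in the table had a size of 0.40, larger than any mean among the replication genes.

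**Figure D2:**
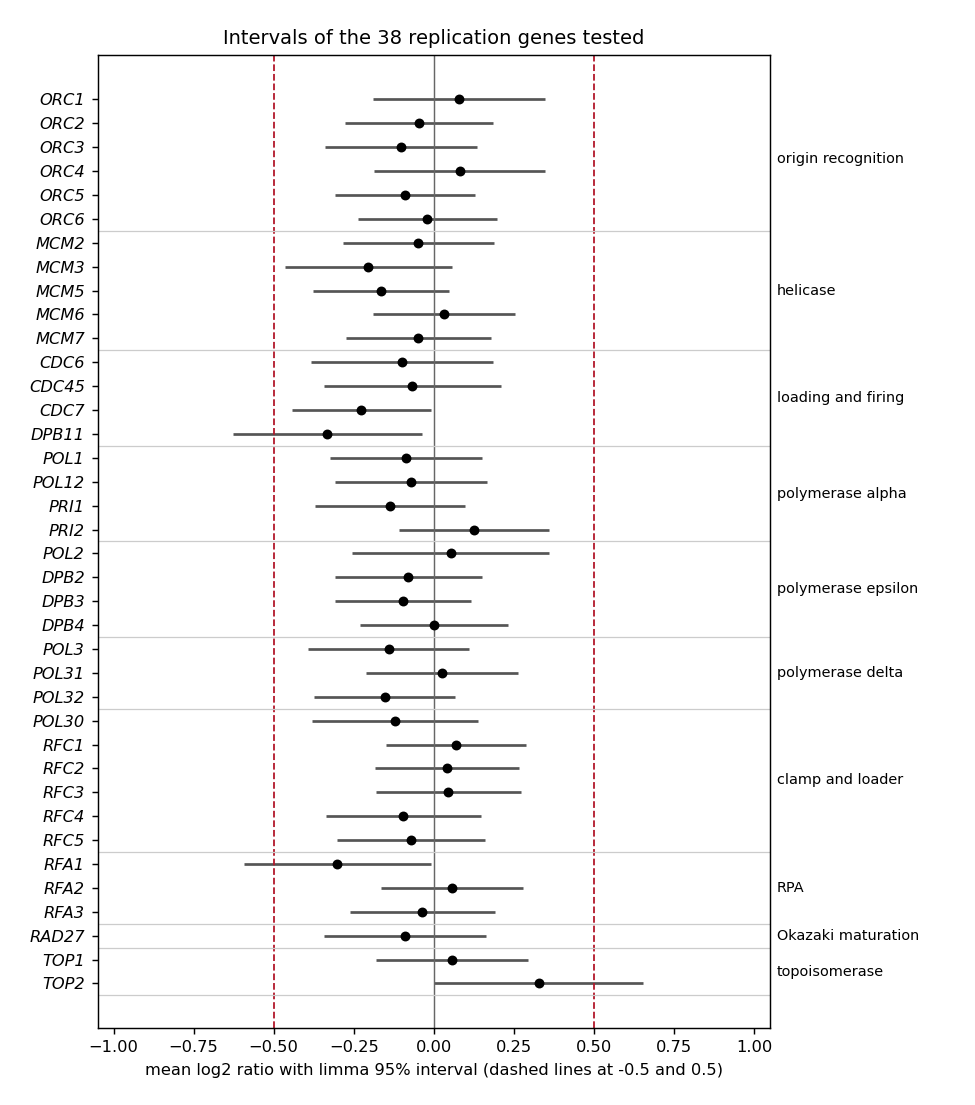
Mean log2 ratio (points) with limma's 95% interval (lines) for the 38 replication genes tested, grouped by role; dashed lines mark -0.5 and 0.5. Only DPB11, RFA1 and TOP2 cross a dashed line.

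The topoisomerases differed from each other in their spread. TOP1 (YOL006C) encodes the type I enzyme, which cuts 1 strand and is not essential in yeast. Its ratios were 0.014, -0.0029, -0.15 and 0.36 on replicates 1 to 4, and its mean of 0.06 ± 0.22 (n = 4) did not pass (limma, BH-adjusted p = 0.815). Replicates 1 and 2 were close to 0, and only replicate 4 stood clearly above; the interval, -0.18 to 0.29, allows at most 1.23-fold. TOP2 (YNL088W) encodes the essential type II enzyme that cuts both strands and separates finished chromosomes. Its ratios were 0.60, -0.33, 0.32 and 0.72. This was the highest mean among the replication genes, 0.33 ± 0.47 (n = 4), or 1.25-fold, and it did not pass (limma, BH-adjusted p = 0.265). Replicates 1, 3 and 4 were high and replicate 2 low. Without replicate 2 the mean was 0.54 and the gene passed (limma, BH-adjusted p = 0.0376), with 164 genes called over the whole table. Leaving out any other replicate gave 0.20 to 0.33 and no call.

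RPA is the trimer that coats single-stranded DNA at forks and at damage. Its largest subunit, RFA1 (YAR007C), had ratios of -0.48, 0.27, -0.54 and -0.45 on replicates 1 to 4. The mean was -0.30 ± 0.38 (n = 4) and did not pass (limma, BH-adjusted p = 0.252). As for TOP2, replicate 2 stood alone, here above 0 with the others close together below it. Without replicate 2 the mean was -0.49 and the gene passed as lower (limma, BH-adjusted p = 0.0409), with 164 genes called over the whole table. Without any other replicate it lay between -0.25 and -0.22. The smaller subunits had means of smaller size, and a difference between subunits was not tested. RFA2 (YNL312W) had ratios of 0.16, -0.10, -0.030 and 0.20, mean 0.06 ± 0.15, and RFA3 (YJL173C) had -0.084, -0.047, -0.20 and 0.19, mean -0.04 ± 0.16.

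**Figure D3:**
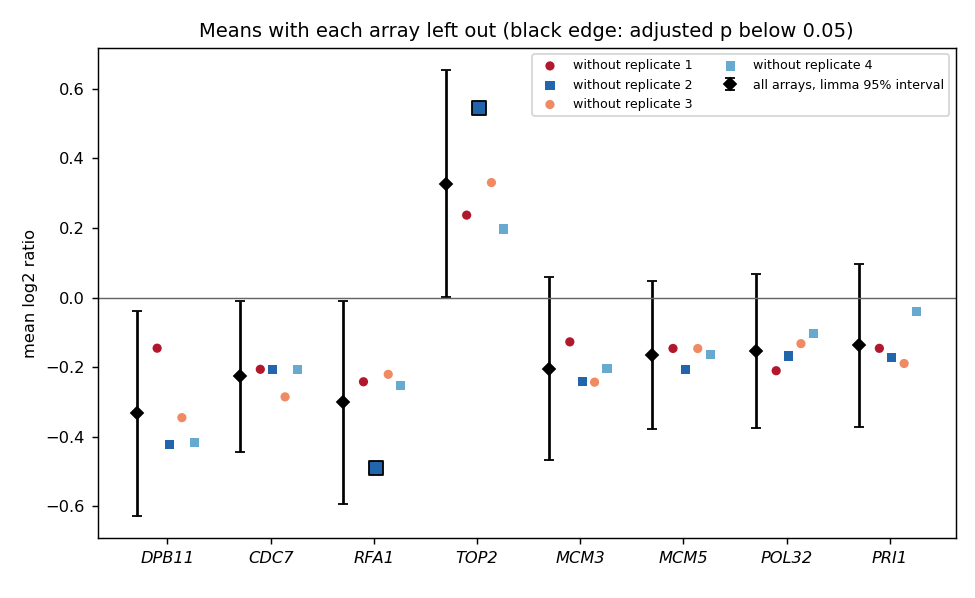
Mean log2 ratio of the 8 replication genes with the lowest unadjusted p, over all arrays (diamonds, with limma's 95% interval) and with each replicate left out (coloured points; a black edge marks an adjusted p below 0.05). TOP2 and RFA1 gain a black edge without replicate 2, at 0.54 and -0.49; no other point has one.

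Among the factors that load and fire the helicase, the 4 genes tested had means below 0, with a median of -0.16. DPB11 (YJL090C) encodes the scaffold that links CDK-phosphorylated Sld2 and Sld3 to the polymerase and also serves the DNA damage checkpoint. Its ratios were -0.89, -0.060, -0.29 and -0.082, the lowest mean among the replication genes at -0.33 ± 0.39 (n = 4), with an adjusted p of 0.212 in limma's test. All arrays lay below 0, but replicate 1 carried much of the mean, which was -0.15 without it. CDC7 (YDL017W), the catalytic subunit of the kinase that phosphorylates the MCM helicase, had -0.29, -0.28, -0.048 and -0.29. Here 3 arrays were nearly equal and replicate 3 was closest to 0, and the mean of -0.23 ± 0.12 (n = 4) did not pass (limma, BH-adjusted p = 0.248). DBF4, the regulatory subunit of that kinase, had no value.

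CDC6 (YJL194W), the loading ATPase transcribed from late M to G1, had ratios of -0.61, 0.015, -0.029 and 0.23 and a mean of -0.10 ± 0.36. Replicate 1 was low and the others lay around 0, and without replicate 1 the mean turned to 0.07. CDC45 (YLR103C), a part of the active helicase, had 0.40, -0.33, -0.29 and -0.048, mean -0.07 ± 0.33, with replicate 1 above the others, and its mean turned above 0 without replicate 2 (0.021) and without replicate 3 (0.0068). Replicate 1 thus held the lowest value of CDC6 and DPB11 and the highest of CDC45. It was also the array with the widest spread over all ORFs, with an SD of 0.379, beside 0.308, 0.287 and 0.272 on replicates 2 to 4. The median of the factors measured was -0.45 on replicate 1, -0.17 on replicate 3, -0.06 on replicate 2 and -0.07 on replicate 4.

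Of the MCM helicase 5 of 6 subunits were tested, and 4 of the 5 had means below 0 (median -0.05). MCM5 (YLR274W) had -0.22, -0.042, -0.22 and -0.17, a mean of -0.17 ± 0.09 (n = 4) that did not pass (limma, BH-adjusted p = 0.375). Its arrays were close together and all below 0. MCM3 (YEL032W) had -0.36, -0.13 and -0.13 on replicates 1 to 3, also all below 0, with a mean of -0.20 ± 0.13 (n = 3, limma, BH-adjusted p = 0.375). The other subunits took both signs. MCM2 and MCM7 were each at -0.05 (± 0.21 and ± 0.17), and MCM6 (YGL201C) was highest at 0.03 ± 0.15, from -0.0015, -0.16, 0.14 and 0.15.

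The origin recognition complex, which marks origins through the whole cycle, had all 6 subunits tested, with means between -0.10 and 0.08 and a median of -0.03. ORC3 (YLL004W) was lowest, with 0.093, -0.16, -0.38 and 0.034, mean -0.10 ± 0.21. ORC4 (YPR162C) was highest, with -0.37, 0.13, 0.30 and 0.27, mean 0.08 ± 0.31. Both took both signs. In ORC4 replicate 1 stood below the rest; the mean was 0.23 without it, 0.0064 without replicate 3 and 0.018 without replicate 4, with no call in any case. ORC2 split by dye, with -0.21 and -0.20 where treated RNA carried Cy3 and 0.15 and 0.084 where it carried Cy5, but its dye difference of 0.32 did not pass (limma, BH-adjusted p = 0.58).

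Polymerase alpha with its primase begins each new strand. PRI1 (YIR008C), the catalytic primase subunit, had -0.11, -0.031, 0.021 and -0.43, mean -0.14 ± 0.20, with replicate 4 well below the others. PRI2 (YKL045W), the large primase subunit, had -0.039, 0.35, -0.050 and 0.25, mean 0.13 ± 0.20, above 0 only on the arrays with treated RNA in Cy5. Its dye difference of 0.34 did not pass (limma, BH-adjusted p = 0.563). The polymerase subunits POL1 and POL12 were at -0.09 ± 0.21 and -0.07 ± 0.21. None of these 4 passed (limma, BH-adjusted p from 0.526 to 0.765).

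Polymerase epsilon copies the leading strand and polymerase delta the lagging strand. The catalytic subunit of epsilon, POL2 (YNL262W), had -0.41, 0.070, 0.60 and -0.053, mean 0.05 ± 0.42, with replicates 1 and 3 at opposite ends although they share a dye orientation. ORC5, the next gene along the chromosome and read in the same direction, had -0.13, -0.19, 0.10 and -0.14. DPB3 (YBR278W), a small subunit of epsilon, was lowest of that enzyme at -0.10 ± 0.08, from -0.19, 0.0088, -0.073 and -0.13, and DPB2 and DPB4 were at -0.08 ± 0.18 and 0.00094 ± 0.19. In polymerase delta the catalytic subunit POL3 (YDL102W) had nearly the same ratio on each of the 3 arrays that measured it, -0.13, -0.14 and -0.16 (mean -0.14 ± 0.016, n = 3). With each gene's own variance POL3 and RAD27 shared the lowest adjusted p among the replication genes, 0.244, and with limma's pooled variance POL3 was at 0.54. POL32 (YJR043C) had 0.016, -0.11, -0.22 and -0.30, mean -0.15 ± 0.14, and POL31 (YJR006W) had 0.26, 0.11, -0.018 and -0.25, mean 0.03 ± 0.21. POL32 was below 0 on 3 arrays, while POL31 was spread evenly about 0.

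The clamp PCNA, encoded by POL30 (YBR088C), holds polymerases on DNA, and replication factor C loads it. POL30 had -0.20, -0.18 and 0.012 on replicates 2 to 4, mean -0.12 ± 0.12 (n = 3), and no value on replicate 1. Its neighbour RFC5 (YBR087W), read towards it, had 0.14, -0.050, -0.069 and -0.31, mean -0.07 ± 0.19, so that on replicate 4 the pair lay on opposite sides of 0. RFC1 (YOR217W), the large subunit of the loader, was highest at 0.07 ± 0.12, from 0.085, 0.15, -0.11 and 0.15. RFC2, RFC3 and RFC4 were at 0.04 ± 0.16, 0.04 ± 0.17 and -0.10 ± 0.23. None of the 6 passed (limma, BH-adjusted p from 0.624 to 0.866). RAD27 (YKL113C), the flap nuclease of lagging strands, had -0.089, -0.10 and -0.080 on replicates 2 to 4, mean -0.09 ± 0.011 (n = 3), close together and slightly below 0 (limma, BH-adjusted p = 0.716).

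The dye swap gives a second reading. The difference between arrays with treated RNA in Cy5 and in Cy3 was called for none of the 38 replication genes (0, lowest adjusted p = 0.49, with 1 at an unadjusted p under 0.05). Over all genes tested 0.0391% were called by limma with BH adjustment, 2 of 5112, and 9.76% had an unadjusted p under 0.05. If the table held a fixed ratio of the dyes in place of treated over vehicle, this difference would carry the treatment effect, so no replication gene was called under either reading. The largest difference was in DPB11 at 0.52 (limma, BH-adjusted p = 0.49), and it was followed by CDC6 at 0.44 and RFA1 at 0.42. In each the Cy3 arrays gave the lower mean, and replicate 1 or 3 held the lowest value. Without replicate 3 the dye difference of DPB11 was 0.82 and passed (limma, BH-adjusted p = 0.0483), with 168 genes called over the whole table, and it then rests on replicate 1 against replicates 2 and 4.

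**Figure D4:**
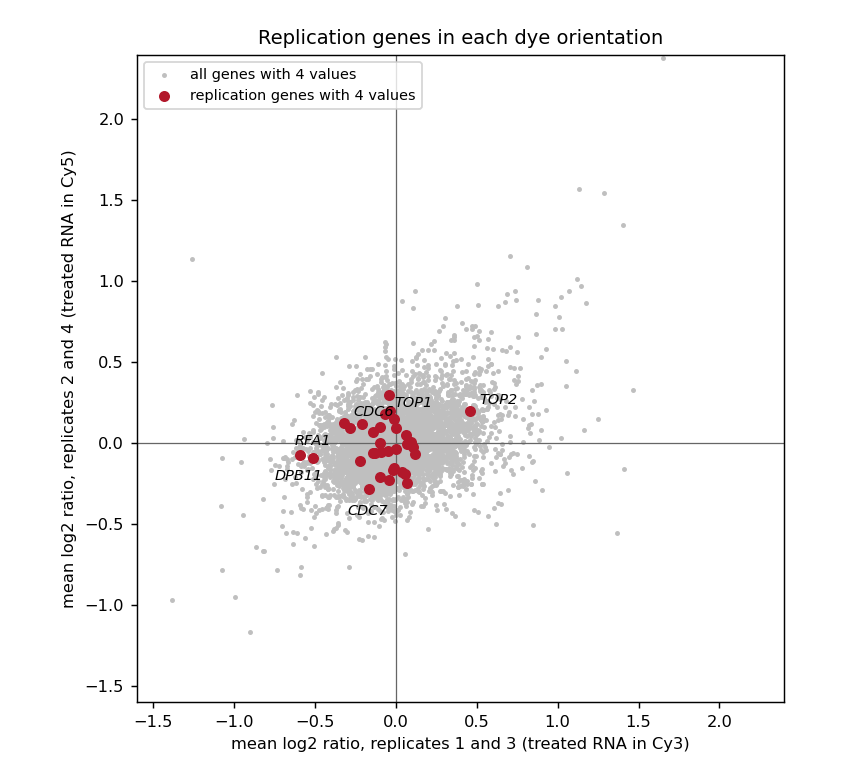
Mean log2 ratio on replicates 2 and 4 (treated RNA in Cy5) against the mean on replicates 1 and 3 (treated RNA in Cy3), for the 33 replication genes with 4 values (red) and all 4574 genes with 4 values (grey). The replication genes lie within the cloud of all genes, and among them TOP2 is farthest to the right and DPB11 and RFA1 farthest to the left.

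Other genes of the pathway also gave no call. Of 31 further replication genes (the GINS complex, Cdt1, fork-protection factors, alternative clamp loaders, RNase H2, chromatin assembly factors and TOP3 among them) 28 were tested and none was called by limma with BH adjustment (0, with 3 at an unadjusted p under 0.05). Those 3 were 10.7% of the genes tested here, beside 18.8% of all genes tested. The median of the 28 was -0.06, with 16 means below 0 (57.1%, beside 53.2% of all genes tested). The largest in size was RMI1 (YPL024W), which acts with the helicase Sgs1 and the topoisomerase Top3 to undo joined DNA strands, with ratios of 0.58, 0.28, 0.053 and 0.57. All were above 0, and the mean of 0.37 ± 0.25 (n = 4) did not pass (limma, BH-adjusted p = 0.112). Of the regulators of G1/S transcription 6 were tested and none was called (0 by limma, and 0 with an unadjusted p under 0.05; median 0.03), WHI5 (YOR083W), the repressor of the factor SBF, being largest at 0.22 ± 0.25 (n = 3).

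Among 11 tested targets of MBF outside replication, 1 rose, none fell, and 2 (18.2%) had an unadjusted p under 0.05. Over all genes tested 2.07% were called higher, 0.959% lower, and 18.8% had an unadjusted p under 0.05. The median of the 11 was -0.08, with 8 means below 0 (72.7%, beside 53.2% of all genes tested). The rise was in SWE1 (YJL187C), the kinase that delays mitosis by phosphorylating Cdc28. Its ratios were 0.51, 0.56, 0.45 and 0.51, mean 0.51 ± 0.05 (n = 4, limma, BH-adjusted p = 0.0146), close together on all arrays and larger than any replication gene's mean; the call was lost without replicate 3 and without replicate 4. The histone genes of S phase had 0 of 8 called by limma and 1 with an unadjusted p under 0.05 (HTA2, YBL003C, at -0.28 ± 0.24), and a median of -0.11. Of their 8 means 7 were below 0 (87.5%, beside 53.2% of all genes tested). The G2/M genes had 0 of 6 called by limma and 1 with an unadjusted p under 0.05. Their median was -0.18, and all 6 means were below 0, beside 53.2% of all genes tested. Of 4 M/G1 genes tested, 1 fell, PCL9 (YDL179W), a cyclin of the kinase Pho85, with -0.62, -0.39, -0.48 and -0.34 and a mean of -0.45 ± 0.12 (n = 4, limma, BH-adjusted p = 0.0323); this call was lost whichever replicate was left out. Of the 4 genes 3 had an unadjusted p under 0.05, beside 18.8% of all genes tested. The M/G1 median was -0.36, with all 4 means below 0, beside 53.2% of all genes tested. On single arrays the list's median was -0.55, -0.28, 0.16 and -0.58. The part of cell-cycle distribution in the replication genes' values was not tested.

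**Figure D5:**
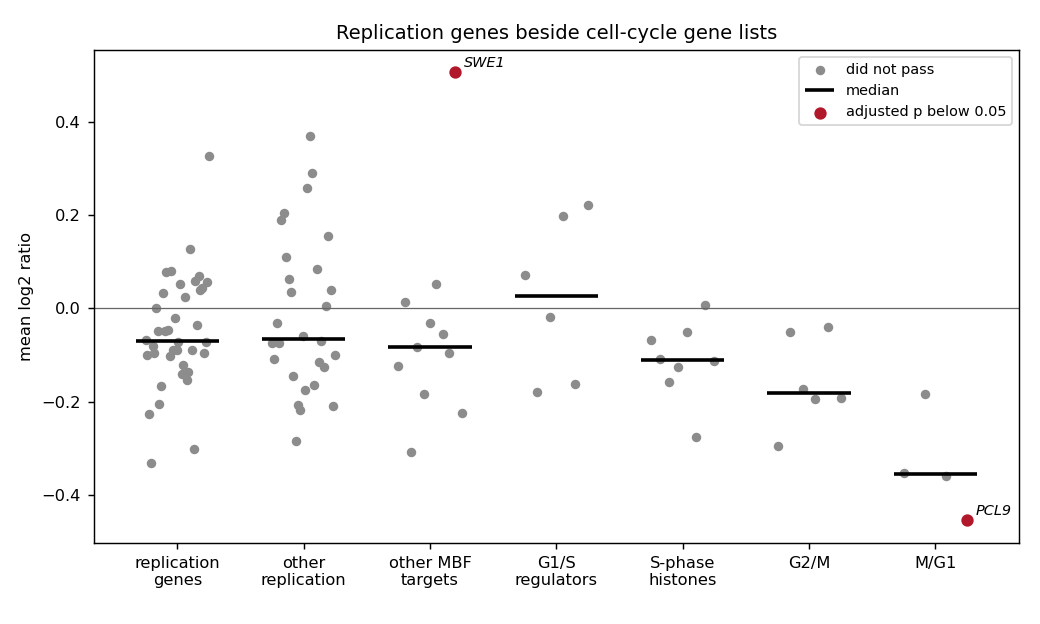
Mean log2 ratio of each tested gene in the replication list and in lists of related and phase-specific genes, with the list median as a black bar. Red points passed the test (SWE1 at 0.51 and PCL9 at -0.45); list medians run from 0.03 for the G1/S regulators to -0.36 for the M/G1 genes.

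Markers of mating type were examined because the strain is MATa. Of 4 tested genes specific to a cells, 1 fell, BAR1 (YIL015W), at -0.76 ± 0.20 (n = 4, limma, BH-adjusted p = 0.00239), which lost its call without replicate 3, and 2 of the 4 had an unadjusted p under 0.05. Over all genes tested 0.959% were called lower and 18.8% had an unadjusted p under 0.05. STE2 and STE6 had means of -0.11 ± 0.26 and -0.22 ± 0.10, while MFA2 lay above 0 at 0.07 ± 0.52, with 0.84 on replicate 1. MFA1, not tested, had -0.91 on replicate 1 and 0.35 on replicate 3. The list's median on single arrays ran from -0.31 to -0.16. Of 4 genes specific to alpha cells 2 were tested and none was called (0 by limma, and 0 with an unadjusted p under 0.05). MF(ALPHA)2 (YGL089C) was at 0.20 ± 0.24 and SAG1 on the other side of 0 at -0.06 ± 0.28. STE3, not tested, had 0.72 on replicate 2 alone. As ratios these values carry no level, so no marker can be called absent, and their part in the replication genes' values was not tested.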

How the data were processed

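Two-colour arrays measured total RNA of 4 treated and 4 vehicle cultures, paired on 4 arrays. The authors deposited a table of log ratios, used here as log2 ratios without further normalization; the sources used here name no scanner, background correction, normalization, log base or direction. Column medians ran from -0.0227 to 0.0029, close to 0, as they would in centred values. Whether the values had been centred is not stated in those sources. No signal or background values were used, so dim and saturated spots could not be told apart. Gene names came from the R64 gene table, where 5638 of 6211 ORFs matched by exact name. It also gave the order of genes, and strand was read from the ORF names.

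Mean log2 ratios were set against 0 in a two-sided test with lmFit and eBayes of limma 3.58.1 (R 4.3.3; no covariate) over the 5112 genes with at least 3 values, with Benjamini-Hochberg adjustment and a threshold of 0.05. A further fit with a dye coefficient tested the difference between dye orientations. The procedure was tested on simulated arrays with independent normal noise and no dye effect. Every change added there was larger in size than any replication gene's mean, so smaller changes were not examined. Alternatives were a dye coefficient, centred, scaled, quantile-normalized or weighted arrays, other minimum numbers of values, other variance estimates and leaving out each replicate. Values in every array are given for the 8 genes with the lowest p, the topoisomerases, POL30 and RFC5, and the highest and lowest mean of each functional group; of the other lists up to 4 called genes, or the largest, are named. That rule called RFC5 and POL30 divergent, whereas the ORF names place them convergent. Other genes were named after their values were seen. The result of 1 gene that the rule takes in is not reported here. The genes, lists and tests were chosen with earlier results of these data known.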

Additional observations from a re-analysis of the deposited data

Results flagged for a closer look

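In 3 of the replication genes 1 array stood apart from the other 3 by more than Dixon's 95% critical value for 4 values. CDC7 was at -0.048 on replicate 3, with the other arrays between -0.29 and -0.28. DPB4 was at 0.28 on replicate 4, with the others between -0.11 and -0.077. RFA1 was at 0.27 on replicate 2, with the others between -0.54 and -0.45. The test was made on 59 sets of 4 values, and chance alone would single out about 1 in 20 of them, so 3 is about the number chance gives. The arrays concerned differ between the genes.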

How the results depend on the processing

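Over 13 alternatives no replication gene was called except without replicate 2, where 1 was higher (TOP2) and 1 lower (RFA1), so leaving out a replicate gave 0 to 1 called in each direction. In that setting 164 genes were called over the whole table, beside 155 with all arrays. A dye difference was called for 0 to 1 replication genes when a replicate was left out, the 1 being DPB11 without replicate 3, and for none under the other settings. The median of the replication genes was -0.07 and ran from -0.071 to -0.020 when a replicate was left out, nearest to 0 without replicate 3. The count over all genes, 155, was 0 with each gene's own variance and 274 with array weights, and 27 to 179 when a replicate was left out, lowest without replicate 3. Of 27 replication genes given array by array, 18 kept the sign of their mean under each alternative. The other genes tested had means near 0 and kept their sign less often. When a replicate was left out, POL1 and RFC4 among them kept their sign throughout. MCM2, MCM7, ORC1, ORC6, POL12, DPB2, DPB4, RFC2 and RFC3 each turned when some replicate was left out. With array weights POL31 turned to -0.017. With a replicate left out, POL31 ran from -0.051 to 0.12, TOP1 from -0.045 to 0.12, RFC5 from -0.14 to 0.0080, MCM6 from -0.0070 to 0.10, CDC45 from -0.22 to 0.021, POL2 from -0.13 to 0.21, CDC6 from -0.21 to 0.071, RFA3 from -0.11 to 0.019 and ORC2 from -0.11 to 0.0095. Each array holds 1 treated and 1 vehicle culture, so the test of the mean ratio against 0 is already paired. No further pairing was possible, as there is 1 group. The number of arrays and the missing signal values limit what could be seen: no mean smaller in size than 0.40 was called in the whole table.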
